A study of Homo sapiens with 27 samples.

Results

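The 10 genes described here encode subunits of the BAF complexes, the SWI/SNF family of chromatin remodellers. They were chosen by name from textbook membership, with earlier results of these data known. They are the ATPases SMARCA2 and SMARCA4, the core subunits SMARCB1, SMARCC1, SMARCC2, SMARCD1 and SMARCE1, the ARID subunits ARID1A and ARID1B, and the actin-related subunit ACTL6A. Of the 93530 transcripts listed in 6 libraries of RM82 cells, 194 belonged to these genes, out of 301 that GENCODE release 44 annotates for them. RM82 is an Ewing sarcoma cell line. Of the libraries, 3 were labelled as treated with SGC-CLK-1, a small-molecule inhibitor of the CDC2-like kinases, and 3 as treated with the solvent dimethylsulfoxide (DMSO), and the study's methods give an exposure of 24 h. The inhibitor's concentration is not given in the sources used here, and the labels do not say whether the libraries of a group came from separate cultures. The study states in general terms that experiments were repeated independently, and p-values measure the spread between these libraries. Whether the level of any gene shows which cells had received the inhibitor was not tested, and groups were named by their labels.

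The comparison asked whether a block of the kinases that act on splicing factors went along with a change in the amount or in the spliced forms of BAF messages. By the study's methods, libraries were sequenced as cDNA on a nanopore instrument, although the labels name an Illumina library kit, and each value was a number of unique molecular identifiers (UMIs) assigned to a transcript. In the order of libraries 1, 2 and 3, used for every list of values below, total counts were 666702, 362826 and 373004 with SGC-CLK-1 and 416352, 523456 and 372876 with DMSO. The 10 genes took 6373 counts in all, which was 0.234, 0.233 and 0.205% of the libraries with SGC-CLK-1 and 0.248, 0.260 and 0.218% of those with DMSO. Levels are given as CPM, counts per 1000000 counts of the library total, and in the shallowest library 1 count was worth 2.76 CPM.

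Of 13 markers of Ewing sarcoma cells, 11 were detected, with STEAP2 the most abundant at 3646 counts, while NKX2-2 and FLI1 were at 0 counts. Their summed level was 2838, 2891 and 3421 CPM with SGC-CLK-1 and 3547, 3297 and 3390 CPM with DMSO. Of 8 T cell markers 3 were detected, CD3G being the most abundant with 24 counts, and CD3D, CD3E, CD2, CD28 and TRBC1 were at 0. Their sum was 3.0, 5.51 and 5.36 CPM with SGC-CLK-1 and 14.4, 15.3 and 16.1 CPM with DMSO. The T cell sum was thus lower in every library with SGC-CLK-1, at a level of a few counts. The leukocyte gene PTPRC had 42 counts, at 10.5, 22.0 and 32.2 CPM with SGC-CLK-1 and 19.2, 5.73 and 10.7 CPM with DMSO, and its groups overlapped. Of 8 plasma cell markers 4 were detected, XBP1 leading with 11 counts, and SDC1, TNFRSF17, IRF4 and MZB1 were at 0. Their sum was 16.5, 5.51 and 13.4 CPM with SGC-CLK-1 and 9.61, 1.91 and 2.68 CPM with DMSO. The part of these few counts in the results was not tested.

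BAF complexes use the energy of ATP to slide or evict nucleosomes and so open promoters and enhancers. Each complex holds 1 ATPase, either SMARCA4 or SMARCA2, a core in which SMARCC1 and SMARCC2 pair with themselves or with each other, and, in the canonical form, either ARID1A or ARID1B. In Ewing sarcoma with the EWSR1-FLI1 fusion, the fusion protein recruits BAF complexes to GGAA repeats. ARID1A is made in Ewing sarcoma in a long and a short protein form. Which fusion RM82 cells carry was not tested here, and FLI1 was at 0 counts. The CDC2-like kinases phosphorylate SR proteins, which bind exons and help to choose splice sites.

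Levels were compared between genes per length, as CPM of the gene sum divided by the length in kilobases of the gene's canonical transcript. This divisor lowers genes with long transcripts. ACTL6A, an actin-like protein of the ATPase module, stood highest, with a mean over the 6 libraries of 230.2 CPM per kb. SMARCE1 followed with 95.2, SMARCC2 with 75.3, SMARCA4 with 72.2 and SMARCC1 with 36.0 CPM per kb. The ARID subunits lay lower, ARID1A at 19.4 and ARID1B at 17.4 CPM per kb. SMARCD1 at 5.31, SMARCB1 at 4.91 and SMARCA2 at 1.34 CPM per kb closed the order. Within their spread SMARCE1, SMARCC2 and SMARCA4 overlapped, as did ARID1A and ARID1B, and SMARCD1 overlapped with SMARCB1 and with SMARCA2. Whether UMI counts rise with transcript length was not tested, and without the divisor the order differed. Over the 6 libraries SMARCE1 had 1319 counts, ACTL6A 1153, SMARCA4 1119, SMARCC2 1070, SMARCC1 628, ARID1B 487 and ARID1A 454.

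Part of the order per length also rests on how molecules were counted. By the study's methods the alignment allowed up to 3 secondary alignments, so 1 molecule could be counted on several transcripts of a gene. Whether these entered the counts was not tested. For ACTL6A, 3 protein-coding transcripts held 380, 377 and 360 counts, with the same value in SGC-CLK-1 libraries for the leading pair (83, 66 and 37 counts for ENST00000429709 and for ENST00000392662). SMARCC2 showed the same pattern, with 251, 243, 225 and 210 counts on 4 transcripts. SMARCA4 was spread over 32 transcripts with 10 or more counts, and its most abundant, ENST00000646484, held 5.90% of the sum. When only the most abundant transcript of each gene was taken, ACTL6A was still highest at 75.8 CPM per kb, SMARCE1 lay at 15.6 CPM per kb beside SMARCC2 and SMARCC1 at 17.6 each, and SMARCA4 dropped to 4.32 CPM per kb.

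**Figure D1:**
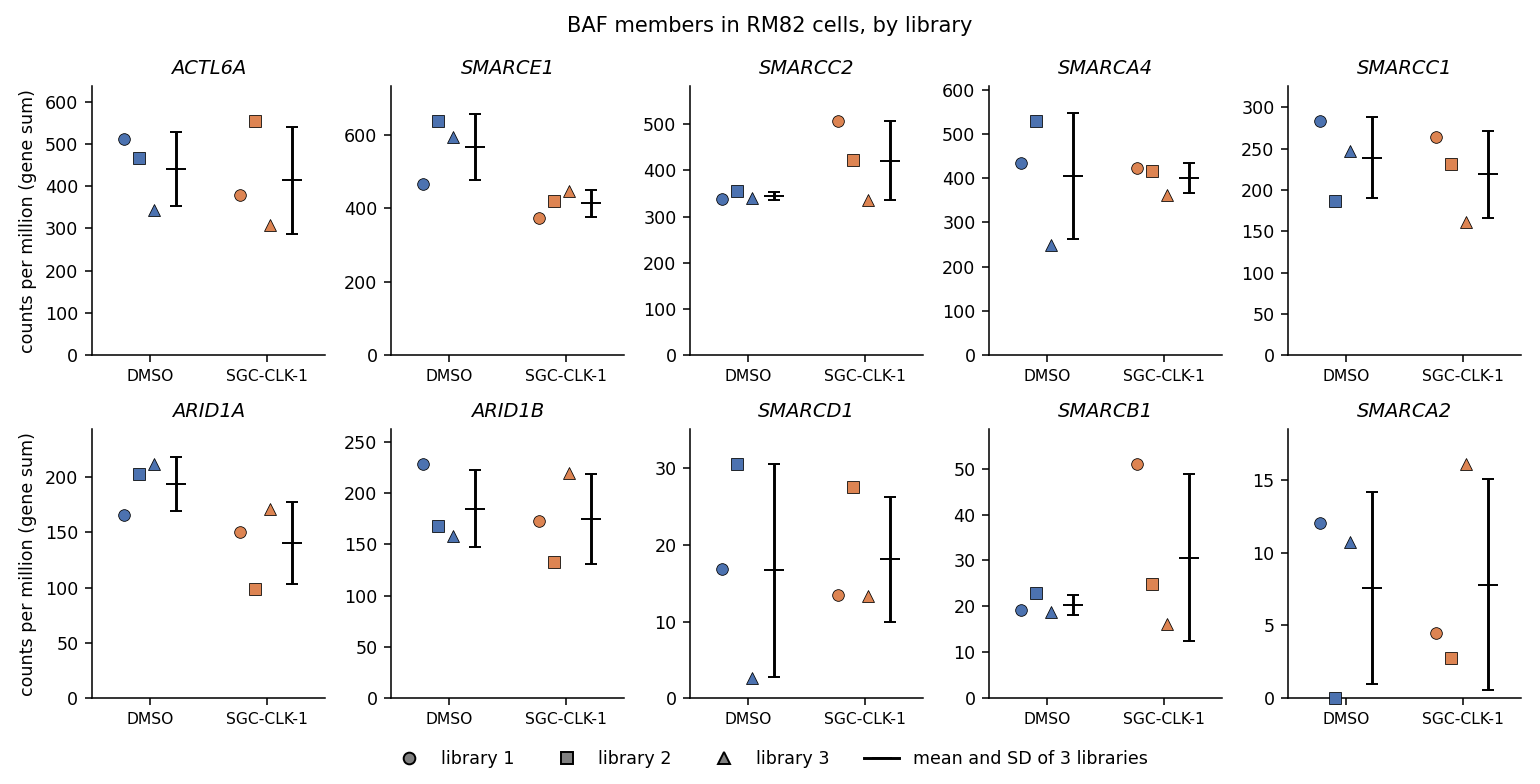
Gene sums of the 10 BAF members in CPM (vertical axes, each from 0 and each on its own scale) for the 3 DMSO libraries in blue and the 3 SGC-CLK-1 libraries in orange, with the mean and SD of each group beside them. Among the 7 genes tested, only the SMARCE1 groups do not overlap, with 375 to 448 CPM against 466 to 638 CPM.

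Counts summed to genes were compared with edgeR's quasi-likelihood test over all 6344 genes that passed its filter on low counts. Of the 10 members 7 passed the filter, and none of them passed an adjusted p of 0.05, against 0.236% of all genes tested. At an unadjusted p under 0.05 edgeR called 1 member, SMARCE1, which was lower, against 13.9% of all genes and 6.97% called lower, and DESeq2 called none of the 7 after adjustment, against 2.26% of the genes to which it gave an adjusted p. Among the 7 tested, 6 had a lower and 1 a higher estimate with SGC-CLK-1, and their median log2 fold change was -0.17, beside -0.001 over all genes tested, of which 50.1% were lower. SMARCE1 was the 1 of 7 whose groups did not overlap, against 19.9% of all genes.

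SMARCE1 (ENSG00000073584, chr17:40624962-40648654, minus strand, GRCh38) encodes an HMG-box subunit of the core. Its gene sum was 375, 419 and 448 CPM with SGC-CLK-1 and 466, 638 and 595 CPM with DMSO. Every library with SGC-CLK-1 lay below every library with DMSO, and the gap between the nearest libraries was small beside the spread of the DMSO group. The means were 414 ± 36.6 and 566 ± 89.6 CPM (SD, n = 3 each). In edgeR the log2 fold change was -0.54 (SE 0.20, 95% interval -0.96 to -0.11), with an adjusted p of 0.24. When only its most abundant transcript was counted, the estimate was -0.21. In bulk RNA a lower level in every cell and fewer cells with the message cannot be told apart.

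ARID1A (ENSG00000117713, chr1:26693236-26782104, plus strand) encodes the subunit that brings a DNA-binding ARID domain to canonical BAF. It was at 150.0, 99.2 and 172 CPM with SGC-CLK-1 and at 166, 202 and 212 CPM with DMSO. The groups overlapped by 1 library, SGC-CLK-1 library 3, which exceeded DMSO library 1. The log2 fold change was -0.53 (SE 0.26, 95% interval -1.08 to 0.01), with an edgeR adjusted p of 0.377. Without SGC-CLK-1 library 2, which held 36 ARID1A counts, it was -0.35. Its paralog ARID1B was at 172, 132 and 220 CPM with SGC-CLK-1 and at 228, 168 and 158 CPM with DMSO. These values were interleaved, and the estimate was -0.15 with an interval from -0.68 to 0.38. It ran from -0.35 without SGC-CLK-1 library 3 to 0.00174 without SGC-CLK-1 library 2.

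For both scaffold subunits the groups overlapped and the 95% interval crossed 0. SMARCC2 was at 507, 422 and 335 CPM with SGC-CLK-1 and at 339, 355 and 341 CPM with DMSO. It was the only member of the 7 with a higher estimate, 0.22 (95% interval -0.22 to 0.66), and SGC-CLK-1 library 3 lay below all 3 DMSO libraries. Without SGC-CLK-1 library 1 the estimate was 0.0414. SMARCC1 was at 264, 232 and 161 CPM with SGC-CLK-1 and at 283, 187 and 247 CPM with DMSO, with an estimate of -0.19 (95% interval -0.71 to 0.34) that ran from -0.37 without SGC-CLK-1 library 1 to -0.0254 without SGC-CLK-1 library 3.

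SMARCA4 was the BAF ATPase with the higher level per length, at 72.2 CPM per kb against 1.34 for SMARCA2. Its gene sum was 423, 416 and 362 CPM with SGC-CLK-1 and 435, 529 and 249 CPM with DMSO. The DMSO libraries spanned the whole range of the SGC-CLK-1 libraries, and the estimate of -0.09 (95% interval -0.60 to 0.43) changed sign to 0.15 without DMSO library 2 and to 0.08 when only protein-coding transcripts were counted. ACTL6A was at 378, 554 and 308 CPM with SGC-CLK-1 and at 512, 466 and 343 CPM with DMSO, an estimate of -0.17 (95% interval -0.67 to 0.34) that ran from -0.43 without SGC-CLK-1 library 2 to -0.0143 without SGC-CLK-1 library 3. For the 7 tested members the 95% intervals reached no further than 0.66 upward and -1.08 downward on the log2 scale.

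**Figure D2:**
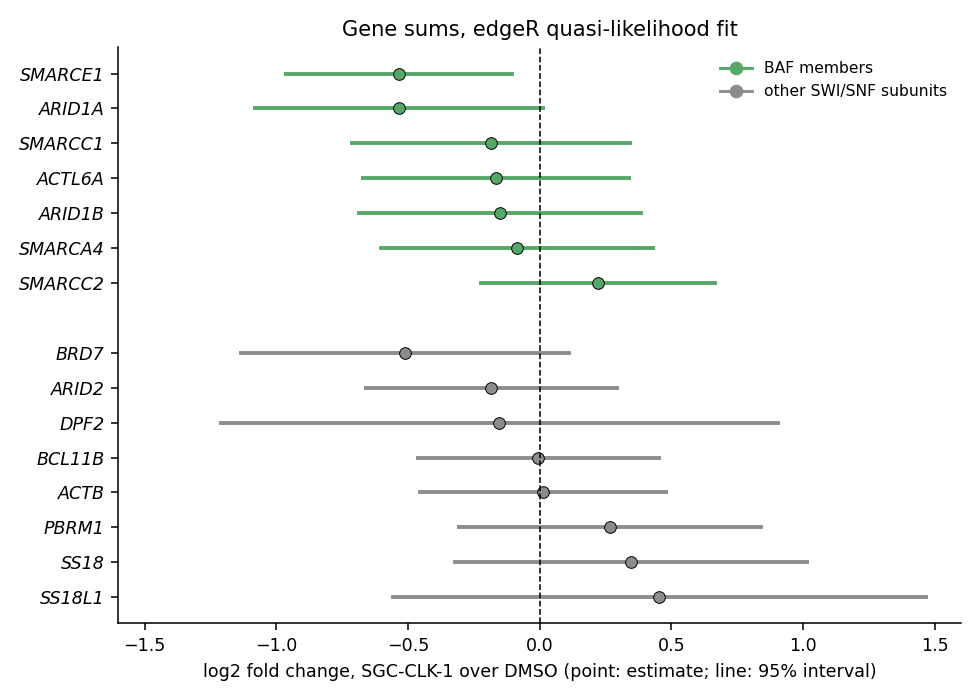
Log2 fold change of the gene sum, SGC-CLK-1 over DMSO (horizontal axis), for the 7 BAF members tested in green and the 8 other SWI/SNF subunits tested in grey; points are edgeR estimates and lines 95% intervals. Of the 15 intervals, only that of SMARCE1 (-0.96 to -0.11) does not cross 0.

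The 3 remaining members were too low for the filter and were compared by exact permutation tests, two-sided, which with 3 libraries against 3 cannot give a p below 0.1. SMARCB1, the core subunit lost in rhabdoid tumours, had 34, 9 and 6 counts with SGC-CLK-1 and 8, 12 and 7 with DMSO. Library 1 with SGC-CLK-1 was the high one, and the means of 30.6 ± 18.2 and 20.3 ± 2.28 CPM (SD, n = 3 each) gave an exact permutation p of 0.6. The log2 ratio of these means was 0.59, and it was 0.01 without SGC-CLK-1 library 1 and 0.90 without SGC-CLK-1 library 3. Most SMARCB1 counts, 78.2 ± 4.92% with SGC-CLK-1 and 75.8 ± 9.55% with DMSO (SD, n = 3 each), fell on transcripts annotated as holding a retained intron. SMARCD1, an adaptor between the complex and transcription factors, had 9, 10 and 5 counts with SGC-CLK-1 and 7, 16 and 1 with DMSO.

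SMARCA2, the ATPase that can take the place of SMARCA4, had 3, 1 and 6 counts with SGC-CLK-1 and 5, 0 and 4 with DMSO. The 0 in DMSO library 2 allows a level of up to 5.73 CPM for counting error alone. Exact permutation p-values were 1 for SMARCD1 and for SMARCA2, and with so few counts a difference was not detectable at this depth.

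Ratios of paralogous subunits were taken within each library, so that depth cancels, as log2 of the ratio of gene sums with 0.5 added to each count. The ARID1A to ARID1B ratio was -0.20, -0.41 and -0.36 with SGC-CLK-1 and -0.46, 0.27 and 0.42 with DMSO. These ratios are of counts, not per length, and serve only to compare libraries. All SGC-CLK-1 libraries lay below DMSO libraries 2 and 3 and above DMSO library 1. The difference was -0.40, with an exact permutation p of 0.4 (0.6 adjusted over the 3 ratios), and ran from -0.66 without DMSO library 1 to -0.23 without DMSO library 3. The SMARCC1 to SMARCC2 ratio was -0.94, -0.86 and -1.05 with SGC-CLK-1 and -0.26, -0.92 and -0.46 with DMSO, a difference of -0.40 with an exact permutation p of 0.2 (0.6 adjusted). It ran from -0.59 without DMSO library 2 to -0.26 without DMSO library 1. With protein-coding transcripts only it was -0.46 and the groups did not overlap, at an exact permutation p of 0.1, the smallest this design allows. The SMARCA4 to SMARCA2 ratio lay between 4.38 and 9.12 in all libraries, and its difference of -0.39 rested on 19 SMARCA2 counts (exact permutation p of 0.9, 0.9 adjusted). That difference ran from -1.29 without DMSO library 3 to 1.08 without DMSO library 2.

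**Figure D3:**
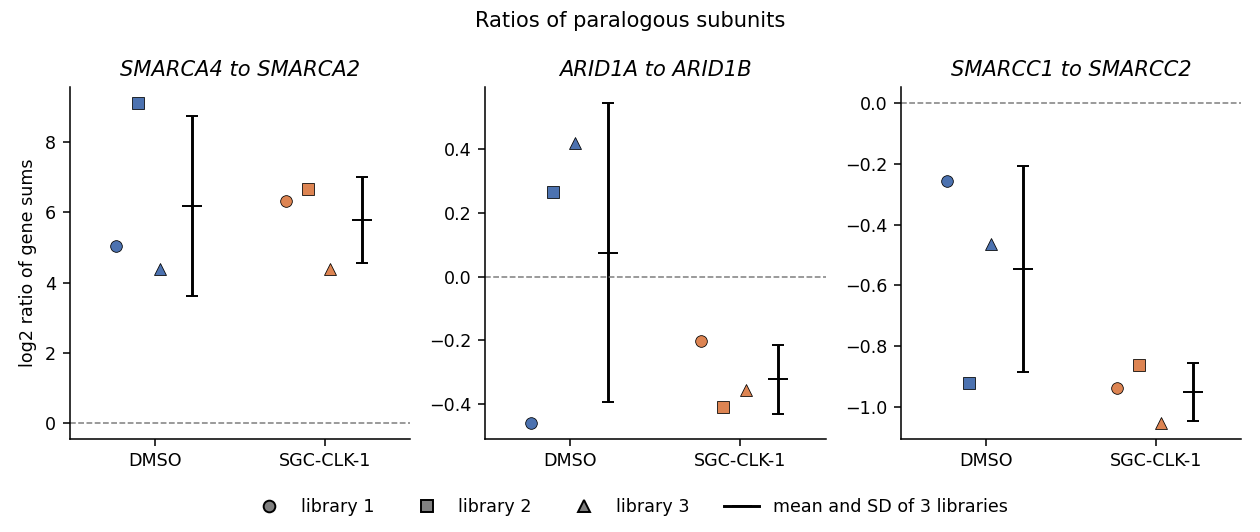
Log2 ratio of the gene sums of 3 pairs of paralogous subunits (vertical axes) in each DMSO library (blue) and SGC-CLK-1 library (orange), with the mean and SD of each group and a dashed line at equal counts. The 3 SGC-CLK-1 values lie closer together than the 3 DMSO values in each panel, and 1 DMSO library lies within the SGC-CLK-1 range for SMARCC1 to SMARCC2.

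At the level of transcripts, 93 of the 194 listed had 10 or more counts over the 6 libraries and held 94.2% of the members' counts, and 34 had a single count. Of 7840 transcripts that edgeR tested, 25 were of members and held 67.5% of their counts. None of the 25 passed an adjusted p of 0.05 in edgeR, against 3.95% of all transcripts tested. At an unadjusted p under 0.05 edgeR called 2, both of SMARCE1 and both lower with SGC-CLK-1, against 18% of all transcripts and 9.11% called lower. DESeq2 gave an adjusted p to 12 of the 25 and called none of these, against 3.61% of all transcripts to which it gave one. The 13 without one included both of these SMARCE1 transcripts and all 4 ARID1A transcripts tested. Estimates were lower for 13 and higher for 12, against 50.5% lower of all transcripts, with a median log2 fold change of -0.006 for the 25 and the same value for all transcripts. The groups did not overlap for 4 of the 25, against 23% of all transcripts. In the test of transcript usage, which asks whether a gene's transcripts changed unequally, none of 6 members passed after adjustment, against 0.277% of 1805 genes, and none had an unadjusted p under 0.05, against 1.72%.

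No member's most abundant transcript, where tested, had an unadjusted p under 0.05 in edgeR. Those of SMARCE1 and ARID1A are described further below. The log2 fold change was 0.31 for ENST00000550164 of SMARCC2, 0.20 for ENST00000646484 of SMARCA4, 0.005 for ENST00000346085 of ARID1B, -0.12 for ENST00000429709 of ACTL6A and -0.14 for ENST00000254480 of SMARCC1. Their SEs lay between 0.24 and 0.40. With 1 library left out, ENST00000550164 ran from 0.12 (without SGC-CLK-1 library 1) to 0.53 (without SGC-CLK-1 library 3), and the other 4 each changed sign in at least 1 such fit. The leading transcripts of SMARCD1 (ENST00000394963, 22 counts), SMARCB1 (ENST00000645799, 15 counts) and SMARCA2 (ENST00000324954, 3 counts) were too low to test.

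The pair of SMARCE1 transcripts with an unadjusted p under 0.05 in edgeR both lacked exon 4 of the canonical transcript ENST00000348513. Both also began upstream of the canonical start at chr17:40647818 (minus strand), ENST00000643318 at 40648654 and ENST00000647508 at 40648370. The other tested forms of SMARCE1 began between 40647641 and 40647848. These features were not tested apart. ENST00000643318, which also lacks exon 3 and whose annotated coding sequence begins in exon 5, had 23, 3 and 10 counts with SGC-CLK-1 and 18, 26 and 18 with DMSO. ENST00000647508, which keeps exon 3, had 23, 4 and 5 counts with SGC-CLK-1 and 13, 24 and 19 with DMSO. In both transcripts libraries 2 and 3 with SGC-CLK-1 were the low ones. Scaled to depth, library 1 was below the DMSO libraries for the former and within their range for the latter. Their log2 fold changes were -0.90 (SE 0.36, edgeR adjusted p of 0.179) and -0.93 (SE 0.39, edgeR adjusted p of 0.190). With each library left out in turn, ENST00000643318 ran from -1.38 (without SGC-CLK-1 library 1) to -0.55 (without SGC-CLK-1 library 2) and passed the threshold in none of the 6 fits. ENST00000647508 ran from -1.76 (without SGC-CLK-1 library 1) to -0.67 (without SGC-CLK-1 library 2), with edgeR adjusted p-values of 0.048 and 0.507, and passed in the former alone.

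Exon 4 spans chr17:40642455-40642559 on the minus strand, 105 bases or 35 codons, so its absence leaves the reading frame intact. It is shown with 10 intron bases on each side because ENST00000643318 and ENST00000647508 both lack it. The 2 junctions that follow tell forms with and without exon 4 apart where exon 3 is present. Capitals mark the whole exon and, in the junctions, the first 15 bases after exon 3.
SMARCE1 exon 4 with its flanks: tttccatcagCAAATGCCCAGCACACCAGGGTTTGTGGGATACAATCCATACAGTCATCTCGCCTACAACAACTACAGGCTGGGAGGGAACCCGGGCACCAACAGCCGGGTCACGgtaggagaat
SMARCE1 exon 3 joined to exon 4: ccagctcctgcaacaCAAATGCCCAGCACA
SMARCE1 exon 3 joined to exon 5: ccagctcctgcaacaGCATCCTCTGGTATC

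Among the transcripts that span this position, 17 lack exon 4 and 19 hold it. Those without it took 72, 17 and 29 counts with SGC-CLK-1 and 57, 100 and 65 with DMSO, beside 160, 128 and 127 and 123, 210 and 141 counts with it. The share without exon 4 was therefore 31.0, 11.7 and 18.6% with SGC-CLK-1 and 31.7, 32.3 and 31.6% with DMSO. The DMSO libraries were nearly equal, SGC-CLK-1 library 1 lay just below them, and libraries 2 and 3 lay lower, with exact (Clopper-Pearson) 95% intervals of 6.98 to 18.1% and 12.8 to 25.6%. The means were 20.4 ± 9.79 and 31.8 ± 0.38% (SD, n = 3 each), a difference of -11.4 percentage points. It was -16.7 points without SGC-CLK-1 library 1 and -7.01 points without library 2. This grouping was made after the 2 transcripts had been seen, so it is given without a test. The intervals treat each count as a separate molecule, and since 1 molecule could be counted on several transcripts they are too narrow even for counting error. The exon was read from the annotation of the transcript to which a molecule was assigned, not from the read itself.

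The other tested forms of SMARCE1 all hold exon 4. The canonical ENST00000348513 had 43, 31 and 29 counts with SGC-CLK-1 and 30, 53 and 30 with DMSO, with a log2 fold change of -0.18 that was -0.0161 without DMSO library 2 and -0.0445 without SGC-CLK-1 library 1. ENST00000578112, the next most abundant, which lacks exon 3 and is annotated as a target of nonsense-mediated decay (NMD), the pathway that degrades messages with an early stop codon, had 27, 20 and 22 counts with SGC-CLK-1 and 23, 41 and 24 with DMSO. Its log2 fold change was -0.40, with an edgeR adjusted p of 0.497. ENST00000643683 was at 0.02. ENST00000644701, with an extra exon of 79 bases, and ENST00000647294, with an extra exon of 98 bases, were at 0.01 and 0.04. The latter is also an NMD transcript. The usage test, which takes all 7 tested transcripts together, gave SMARCE1 an unadjusted p of 0.362.

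**Figure D4:**
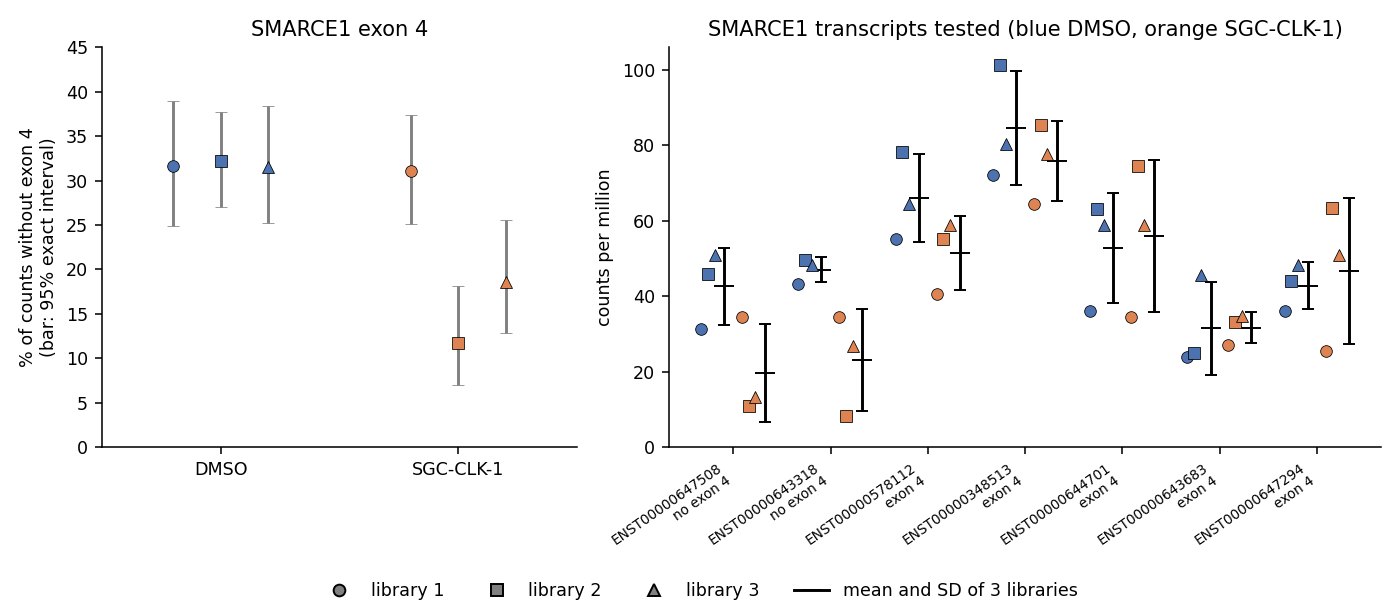
Left, counts on SMARCE1 transcripts without exon 4 as a percent of the counts on all SMARCE1 transcripts that span its position, in each library, with exact 95% intervals that treat each count as a separate molecule; right, CPM of the 7 SMARCE1 transcripts tested, with group means and SD. SGC-CLK-1 libraries 2 and 3 (11.7 and 18.6%) lie below the other 4 libraries (31.0 to 32.3%), and the 2 transcripts at the left are those without exon 4.

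For ARID1A, 13 transcripts were listed and 10 had 10 or more counts. The canonical ENST00000324856, with 20 exons and 8595 bases, had 21, 8 and 13 counts with SGC-CLK-1 and 16, 23 and 14 with DMSO. ENST00000636219, every base of which lies in canonical exons, had the nearly equal counts 22, 7 and 13 and 15, 21 and 14. Both had lower CPM in every library with SGC-CLK-1, with log2 fold changes of -0.42 and -0.35 and edgeR adjusted p-values of 0.551 and 0.650. Without SGC-CLK-1 library 2 the estimates were -0.26 and -0.14. ENST00000430799, which starts from an upstream first exon, was at 12, 2 and 11 counts with SGC-CLK-1 and 8, 14 and 10 with DMSO, and its groups overlapped (-0.44, edgeR adjusted p of 0.665). Its estimate ran from -0.83 without SGC-CLK-1 library 3 to -0.0809 without SGC-CLK-1 library 2. Except for ENST00000636422, the rest were too low to test. Among them ENST00000374152, a protein-coding form with an earlier end, had 6, 2 and 2 counts with SGC-CLK-1 and 4, 7 and 6 with DMSO. ENST00000637788, a single exon that joins 924 bases of intron 19 to exon 20, had 5, 2 and 5 counts with SGC-CLK-1 and 2, 5 and 9 with DMSO. ENST00000636958, which ends within intron 8, had 7 counts in each group.

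The long and short protein forms differ at exon 18 (chr1:26774329-26775220, 892 bases). ENST00000457599 begins the exon at a later acceptor and so lacks its first 651 bases, or 217 codons, and the NMD transcript ENST00000466382 skips the exon. Intron 19 holds an extra exon of 140 bases in the NMD transcript ENST00000532781. Their starts are printed because the spliced forms are told apart there. Capitals mark the first 10 exon bases.
ARID1A full exon 18, chr1:26774309-26774338: tctgcttgtctctgccttagAATTACAAGC
ARID1A shortened exon 18, chr1:26774960-26774989: tgcagaatcacattcctcagGTATCCAGCC
ARID1A extra exon in intron 19, chr1:26775797-26775826: tttctctttctctcttgtagATATCTTCCA

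Transcripts with the full exon 18 took 61, 19 and 39 counts with SGC-CLK-1 and 43, 65 and 44 with DMSO. The shortened exon took 4, 2 and 1 counts with SGC-CLK-1 and 3, 2 and 3 with DMSO, and the skipped form 10, 0 and 6 and 8, 7 and 2. The full form held 85.5 ± 4.62% of these with SGC-CLK-1 and 85.8 ± 5.39% with DMSO, and the shortened form 5.68 ± 3.69% and 4.79 ± 1.83% (SD, n = 3 each). By assigned transcript, the full form thus held most of these counts in all 6 libraries, and the mean shares differed by less than the SD within either group. The forms of ARID1A were read from the annotation of the assigned transcript, not from the read itself. Since 1 molecule could be counted on several transcripts, these shares need not be shares of molecules. With 1 to 4 counts per library, a change in the short form was not detectable at this depth.

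The extra exon in intron 19 took 1 count in each SGC-CLK-1 library and 0, 1 and 6 counts with DMSO, so that 1 library, DMSO 3, held most of it. The shares of the 10 named ARID1A transcripts in the gene's counts gave exact permutation p-values of 0.2 to 1, all 1 after adjustment over the 10.

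Of the ARID1A counts, 22.6 ± 4.92% with SGC-CLK-1 and 23.0 ± 3.90% with DMSO (SD, n = 3 each) fell on transcripts annotated with a retained intron. The larger part was on ENST00000636422, at 13, 7 and 9 counts with SGC-CLK-1 and 11, 20 and 12 with DMSO. Its CPM was lower in all 3 SGC-CLK-1 libraries, 21.0 ± 2.73 against 32.3 ± 5.89 (SD, n = 3 each), with a log2 fold change of -0.64 (SE 0.37) and an edgeR adjusted p of 0.392. Its 2 exons, chr1:26764265-26765095 and chr1:26765386-26765878, lie wholly within intron 8. The last 10 bases of this transcript (in capitals, with the 20 genome bases that follow) are all A, while the canonical transcript, printed for comparison, does not end in such a run. Reverse transcription in this protocol started from oligo(dT), and whether it started from this genomic run of A was not tested.
End of ENST00000636422, chr1:26765869-26765898: AAAAAAAAAAgaaaatctgggtgttagctg
End of ENST00000324856, chr1:26782095-26782124: ATCTTGGTAAgacttttgtgaagcttttta

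**Figure D5:**
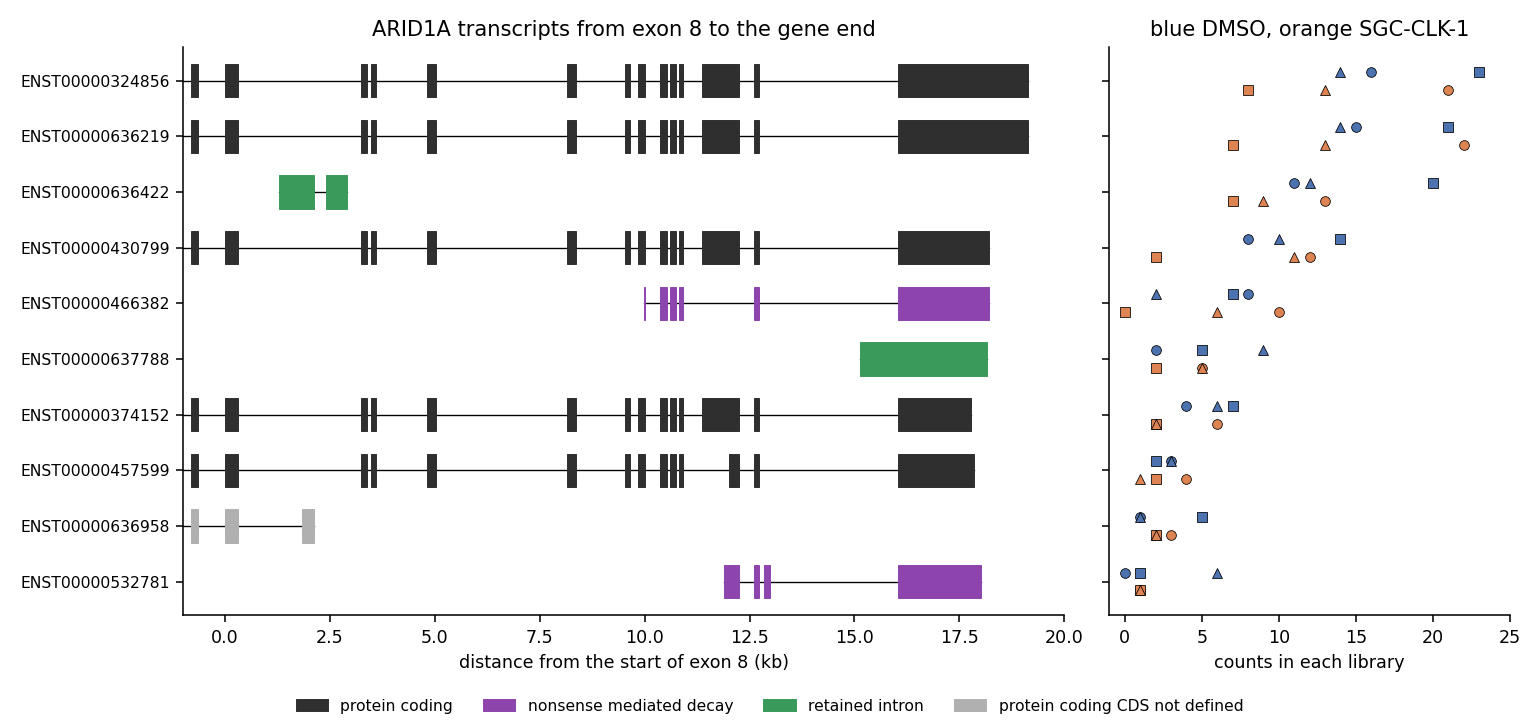
Left, the 10 ARID1A transcripts with 10 or more counts, drawn to scale from just before exon 8 to the end of the gene (boxes are exons, coloured by annotated class; the horizontal axis is the distance from the start of exon 8 in kb); right, counts of each in the 3 DMSO (blue) and 3 SGC-CLK-1 (orange) libraries. ENST00000636422 lies wholly between exons 8 and 9, ENST00000457599 has the shortened exon 18, and counts run from 0 to 23.

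Over all 10 members, protein-coding transcripts held 76.6 ± 1.31% of counts with SGC-CLK-1 and 74.2 ± 1.75% with DMSO (SD, n = 3 each). NMD transcripts held 8.72 ± 1.41 and 10.0 ± 0.96%, and retained-intron transcripts 9.90 ± 1.82 and 10.7 ± 0.36%. SMARCA4 stood out within these classes, with an NMD share of 8.87, 7.95 and 10.4% with SGC-CLK-1 and 17.1, 15.9 and 15.1% with DMSO. All SGC-CLK-1 libraries lay below all DMSO libraries, at 25, 12 and 14 counts against 31, 44 and 14. The difference of -6.96 percentage points lay between -7.62 and -6.40 when each library was left out in turn. It was singled out after the values were seen and has no test. Of 5 members that passed the filter on gene sums and had 10 or more NMD counts it was the 1 whose groups did not overlap, against 12.1% of 1964 genes, 5.5% being lower. For the retained-intron share, under the same 2 limits, none of 7 members had groups that did not overlap, against 14.3% of 2489 genes, 6.51% being lower. SMARCB1, below the filter, had retained-intron shares of 73.5, 77.8 and 83.3% with SGC-CLK-1 and 75.0, 66.7 and 85.7% with DMSO, and its groups overlapped.

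The SMARCA4 NMD counts lay on 7 transcripts. ENST00000646236 was the most abundant, with 14, 8 and 6 counts with SGC-CLK-1 and 11, 11 and 2 with DMSO. ENST00000644327 and ENST00000645061 share an extra exon of 166 bases in intron 30 (chr19:11056217-11056382) and together had 4, 2 and 5 counts with SGC-CLK-1 and 10, 19 and 4 with DMSO. Scaled to depth, these were 6.0, 5.51 and 13.4 CPM against 24.02, 36.3 and 10.7 CPM. The groups overlapped, since SGC-CLK-1 library 3 exceeded DMSO library 3.

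Of 21 further SWI/SNF subunits, all were detected and 8 were tested. None passed in edgeR at an adjusted p of 0.05 or at an unadjusted p under 0.05, 4 had lower and 4 higher estimates, and their median log2 fold change was 0.004. The 3 with the smallest p were BRD7, a bromodomain subunit of the PBAF form, at -0.51 (SE 0.29), SS18, a subunit of canonical BAF, at 0.35 (SE 0.31), and PBRM1, the polybromo subunit of PBAF, at 0.27 (SE 0.27). BRD7 had 62, 26 and 26 counts with SGC-CLK-1 and 43, 45 and 50 with DMSO, with an edgeR adjusted p of 0.468.

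Other remodelling ATPases and their partners gave the lowest adjusted p among the lists examined. Of 30 such genes 25 were tested, 13 with lower and 12 with higher estimates, and none passed an adjusted p of 0.05 in edgeR, while 5 had an unadjusted p under 0.05, against 13.9% of all genes. HELLS, a SNF2-family ATPase that maintains DNA methylation, had 229, 145 and 186 counts with SGC-CLK-1 and 81, 101 and 57 with DMSO, a log2 fold change of 1.12 (SE 0.22) and an adjusted p of 0.0507. Its SGC-CLK-1 libraries were all above its DMSO libraries. CHD2, a chromodomain helicase, had 42, 29 and 32 counts with SGC-CLK-1 and 59, 68 and 61 with DMSO, a log2 fold change of -1.02 (SE 0.27) and an edgeR adjusted p of 0.0985. CHD1 was at 0.94, SMARCAD1 at 1.12 and BAZ1A at -0.60, with edgeR adjusted p-values of 0.158, 0.303 and 0.242. Scaled to depth, the groups of HELLS, CHD2, CHD1 and BAZ1A did not overlap, against 19.9% of all genes. Those of SMARCAD1 overlapped. The list's median was -0.04.

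Polycomb proteins, which write and read repressive histone marks that BAF complexes oppose, showed no adjusted call among the 13 of 20 tested in edgeR. Estimates were lower for 8 and higher for 5, with a median of -0.06. At an unadjusted p under 0.05 there were 2 of 13, a share near the 13.9% of all genes, the histone chaperone RBBP4 at 0.59 (edgeR adjusted p of 0.235) and the Polycomb reader CBX6 at -0.47 (edgeR adjusted p of 0.343). RBBP4 had 368, 216 and 196 counts with SGC-CLK-1 and 143, 239 and 94 with DMSO. In CPM these were 552, 595 and 525 against 343, 457 and 252, and the groups did not overlap. The next smallest p was that of RNF2, a ubiquitin ligase of Polycomb complexes, at -0.55 (SE 0.30, edgeR adjusted p of 0.438), with 52, 24 and 24 counts with SGC-CLK-1 and 55, 43 and 30 with DMSO. Scaled to depth, the groups of RNF2 and of CBX6 did not overlap either, against 19.9% of all genes.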

How the data were processed

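The authors deposited counts of UMIs per transcript for 6 RM82 libraries, without normalization. Their methods describe minimap2 alignment to human transcripts (hg38, Ensembl release 98, up to 3 secondary alignments allowed). Processing notes name minimap2 2.22, UMI-tools, featureCounts 2.0.1 and DESeq2. Which deduplication made these counts is not given in the sources used here. Transcripts were paired with genes by identifier in GENCODE release 44 (GRCh38), where 187 of the 194 member transcripts have the same version; sequences are of the GRCh38 genome. Members and lists were chosen with earlier results of these data known. An unlisted transcript was given 0. Counts and gene sums were tested in R 4.3.3 with edgeR 4.0.16 (filterByExpr, minimum count 10, TMM, quasi-likelihood test, Benjamini-Hochberg), and usage with diffSpliceDGE. DESeq2 1.42.0 was an alternative. Exact tests used scipy 1.17.1. Named transcripts were each member's most abundant, those with p under 0.05, and ARID1A forms with 10 or more counts. From the lists, genes past 0.05 were named, otherwise the 3 with the smallest p and any with an unadjusted p under 0.05; transcripts described by their structure were chosen after seeing values. The other deposited data (reports on a common molecular identifier and a PCR cycle table) were not used here.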

Additional observations from a re-analysis of the deposited data

How the results depend on the processing

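Counts of members past an adjusted p of 0.05 stayed at 0 for gene sums and for usage under every alternative run (for both, other filters, a replicate block and leaving out each library; for gene sums also other scaling, DESeq2, and protein-coding or most abundant transcripts only). For transcripts the count was 0 to 1 when libraries were left out. Gene sums reversed for SMARCA4 (0.18 with the most abundant transcript, 0.0785 with protein-coding transcripts; -0.32 to 0.15 without each library) and ARID1B (-0.35 to 0.00174). Transcripts reversed for ARID1B ENST00000346085 (-0.0278 with no filter, -0.0100 with the replicate block; -0.17 to 0.32 without each library), SMARCC1 ENST00000254480 (-0.33 to 0.0352), ACTL6A ENST00000429709 (-0.34 to 0.0680) and SMARCA4 ENST00000646484 (-0.0431 to 0.66). The SMARCA4 to SMARCA2 difference lay between -1.29 and 1.08, SMARCA2 between -1.06 and 0.54 SMARCB1 between 0.01 and 0.90 and SMARCD1 between -0.38 and 0.90 when libraries were left out, and with no filter SMARCA2 and SMARCD1 were at -0.0142 and -0.0158. The cause was not tested. Replicate numbers did not pair the libraries (correlations of same-numbered deviations 0.06, 0.02 and 0.03), and with the replicate block the counts of calls stayed at 0. Exact permutation tests of shares, 3 against 3, cannot go under 0.1, so that alternative gives no call. Depth limits SMARCA2, SMARCB1, SMARCD1 and the rare forms of ARID1A. A molecule counted on several transcripts makes them dependent.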
